A study of Mus musculus with 67 samples.

Results

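Hsd11b2, Arg1, Pde9a and Bves were 4 of the 46983 gene IDs listed for mouse forelimb buds with and without Gli3. They were chosen by their measured values: none of them encodes a transcription factor, and all 4 stood among the 16 genes that limma called higher in mutant buds before HH signaling, at E9.25, at an adjusted p under 0.05. These 16 were 0.108% of the 14760 genes tested at that stage, and 0.136% (20 genes) passed in either direction. Leaving out one library moved the 20 to 2 without WT replicate 3, 4 without Gli3-/- replicate 1 or 3, 67 without Gli3-/- replicate 4 and 196 without WT replicate 1. Because these values chose the 4 genes, their own difference between genotypes at E9.25 is given below as a description with no test, and so are their differences between stages, which use the same E9.25 libraries. Other genes are tested at both stages. Foxc1 and Hist1h2an were the genes just inside and just outside that threshold, with differences of 1.40 and 1.85 on the log2(TPM + 1) scale. Ordered by that difference among the 16, Pde9a took place 11, Arg1 place 12, Hsd11b2 place 13 and Bves place 16.

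GLI3 is a transcription factor of the Hedgehog (HH) pathway that is processed to a repressor in cells that receive no HH signal. The study asked whether this repressor already holds genes down in the limb bud before HH signaling begins. RNA was sequenced from 14 libraries. The pre-HH groups were whole forelimb buds at E9.25 (21 to 23 somites), with 3 WT and 4 Gli3-/- libraries, and the labels give about 4 pairs of buds per pool. The post-HH groups were anterior forelimb buds at E10.5 (32 to 35 somites), with 4 WT and 3 Gli3-/- libraries from 2 pairs of buds according to the labels. The mutants carried the Gli3 Xt-J allele, a germline loss of Gli3 in every tissue, kept on a Swiss Webster background, and WT libraries are labelled Swiss Webster. Buds of several embryos went into each pool, and the labels name no treatment.

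The 4 genes belong to unrelated pathways. Hsd11b2 encodes 11-beta-hydroxysteroid dehydrogenase type 2, the enzyme that inactivates glucocorticoids and so keeps them from mineralocorticoid and glucocorticoid receptors in kidney, placenta and embryonic tissue. Arg1 encodes arginase 1, which splits arginine into urea and ornithine, the precursor of polyamines, and is best known from the liver urea cycle and from macrophages. Pde9a encodes a phosphodiesterase that breaks down cyclic GMP (cGMP) with high affinity, and Bves (Popeye domain-containing 1) encodes a membrane protein of heart, muscle and epithelia that binds cyclic AMP.

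In the tables Hsd11b2 (ENSMUSG00000031891.5) lay at chr8:105518746-105523984 on the plus strand, Arg1 (ENSMUSG00000019987.8) at chr10:24915208-24927470 on the minus strand, Pde9a (ENSMUSG00000041119.11) at chr17:31386234-31476310 on the plus strand and Bves (ENSMUSG00000071317.3) at chr10:45335762-45369708 on the plus strand. The positions are those of whole genes in the mm10 build named in the submitters' processing notes. No other listed gene overlapped any of the 4. All 4 genes passed the filter on low values in every comparison, which asked for 3 or more libraries at a TPM of 1 or above. A TPM is a level per transcript length. The deposited coverage per TPM, relative to the median gene of the library, was 0.16 to 0.18 for Pde9a and 1.15 to 1.22 for the other 3 in all libraries, so that the place of Pde9a among the 4 depends on the measure.

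Depth was estimated at 38.1 to 56.8 M reads per library, and a TPM of 1 stood for 20.7 to 29.3 reads per kilobase. The 4 genes rested on 68.2 to 2280 estimated reads per kilobase in each library. Gli3 itself, the targeted gene, read 44.2, 15.8 and 44.6 TPM in the E9.25 WT libraries and 14.3 to 20.8 TPM in the mutants. At E10.5 it read 73.4 to 89.7 TPM in WT and 38.7 to 40.9 TPM in the mutants. E9.25 WT replicate 2 thus lay among the mutants in the level of Gli3. This library also had the fewest estimated reads, 38.1 M. It had the fewest genes at a TPM of 1 or above, 13276, beside 14162 to 15816 in the other libraries. Its coverage of Gli3 per TPM, relative to the median gene of the library, was 0.41, with 0.39 to 0.40 in the other WT libraries and 0.14 to 0.16 in all 7 mutants. By this ratio E9.25 WT replicate 2 stood with the WT libraries. The E9.25 differences of the 4 genes and the E9.25 calls of the partner, Hedgehog and flank lists are also given without this library. Most other E9.25 values are given only with it. The p-values measure the spread between these pools, which the labels do not trace to litters. In whole buds, more cells that express a gene and more RNA per cell cannot be told apart.

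At E9.25 the level of each of the 4 genes was 2.67 to 3.54 times as high in Gli3-/- as in WT buds, as a ratio of mean TPM. Hsd11b2 read 11.5, 9.06 and 7.29 TPM in the WT libraries and 25.4, 36.9, 28.0 and 26.6 TPM in the Gli3-/- libraries. On the log2(TPM + 1) scale its mean went from 3.34 ± 0.30 (SD, n = 3) to 4.90 ± 0.23 (SD, n = 4), a difference of 1.56. Arg1, the highest of the 4 at this stage, read 25.6, 18.6 and 13.5 TPM in WT and 58.2, 60.6, 68.6 and 44.9 TPM in Gli3-/- buds. This was a difference of 1.57, from 4.29 ± 0.43 (SD, n = 3) to 5.87 ± 0.25 (SD, n = 4).

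Pde9a was the lowest of the 4 in every E9.25 library. It read 5.28, 3.63 and 3.47 TPM in WT and 14.3, 16.0, 17.1 and 11.0 TPM in Gli3-/- buds. The difference was 1.61, from 2.34 ± 0.27 (SD, n = 3) to 3.95 ± 0.26 (SD, n = 4). Bves read 8.87, 8.86 and 6.49 TPM in WT and 17.3, 25.9, 23.5 and 19.6 TPM in Gli3-/- buds, a difference of 1.31 from 3.17 ± 0.23 (SD, n = 3) to 4.48 ± 0.25 (SD, n = 4).

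For all 4 genes every Gli3-/- library was above every WT library at E9.25, as for 9.97% of all genes tested, and nothing is read from this since the same values chose the genes. The median of all genes tested was itself 0.23 higher in the mutants on this scale. Relative to it the differences were 1.34 for Hsd11b2, 1.35 for Arg1, 1.38 for Pde9a and 1.08 for Bves. Without WT replicate 2 the 4 differences were 1.55, 1.57, 1.54 and 1.38 in the same order. Among the WT libraries, replicate 1 was the highest for each gene, with replicate 2 next to it for Bves, and replicate 3 the lowest.

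**Figure D1:**
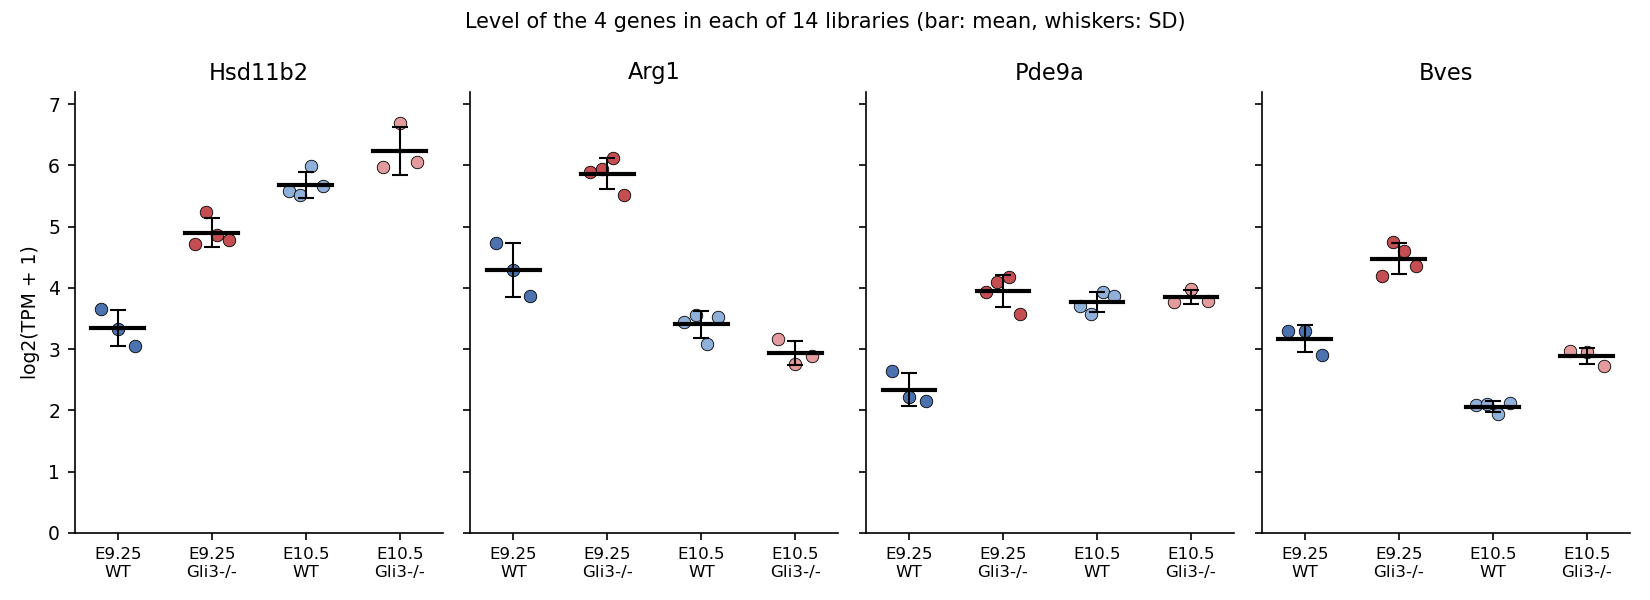
Level of Hsd11b2, Arg1, Pde9a and Bves in each of the 14 libraries on the log2(TPM + 1) axis, by group, with 1 point per library, a bar at the mean and whiskers of 1 SD. The 4 genes share a higher level in E9.25 Gli3-/- than in E9.25 WT libraries, and their levels at E10.5 range from 1.94 for Bves to 6.69 for Hsd11b2.

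At E10.5, which had no part in the choice of the genes, Bves was the only one of the 4 that differed between genotypes beyond the test's threshold. It read 3.27, 3.29, 2.83 and 3.34 TPM in anterior WT buds and 6.84, 6.73 and 5.62 TPM in anterior Gli3-/- buds. Every Gli3-/- library was above every WT library, as for 7.87% of all genes tested, and the ratio of mean TPM was 2.01. The difference of log2(TPM + 1) was 0.82 ± 0.12 (SE; 95% interval 0.55 to 1.08; limma, adjusted p = 0.00499), from 2.06 ± 0.08 (SD, n = 4) to 2.88 ± 0.14 (SD, n = 3). It was upregulated with each single library left out (adjusted p = 0.0103 to 0.0260 in limma). Of 15654 genes tested at this stage 4.77% (747) passed in either direction and 1.84% (288) were higher in the mutants. That count of 747 was 450 without WT replicate 1, 450 without WT replicate 4 and 489, 453 and 301 without Gli3-/- replicates 1, 2 and 3. With a replicate block by the numbers in the titles, Bves did not pass (difference 0.84, limma, adjusted p = 0.0651).

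Hsd11b2 read 46.9, 44.6, 62.6 and 49.8 TPM in anterior WT buds and 61.7, 103 and 65.9 TPM in anterior Gli3-/- buds. The groups overlapped, since WT replicate 3 was above Gli3-/- replicate 1. The difference of 0.56 ± 0.18 (SE; 95% interval 0.16 to 0.95) did not pass (limma, adjusted p = 0.119), although a block by the numbers of the deposited tables took it past the threshold (limma, difference 0.52, adjusted p = 0.0262). Arg1 stood at 3.45, 3.56, 3.08 and 3.53 in WT and 3.16, 2.76 and 2.89 in Gli3-/- buds on the log2(TPM + 1) scale, 5.79 to 10.8 TPM. Its difference had the opposite sign to that at E9.25, -0.47 ± 0.15 (SE; 95% interval -0.80 to -0.13), with overlapping groups, and did not pass (limma, adjusted p = 0.121).

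Pde9a read 12.1, 10.9, 14.4 and 13.5 TPM in WT and 12.6, 14.8 and 12.9 TPM in Gli3-/- buds, so that the mutant values lay within or next to the range of WT. The difference was 0.07 ± 0.11 (SE; 95% interval -0.18 to 0.33; limma, adjusted p = 0.779). The median gene differed by -0.02 at E10.5, so these values are hardly altered relative to it.

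**Figure D2:**
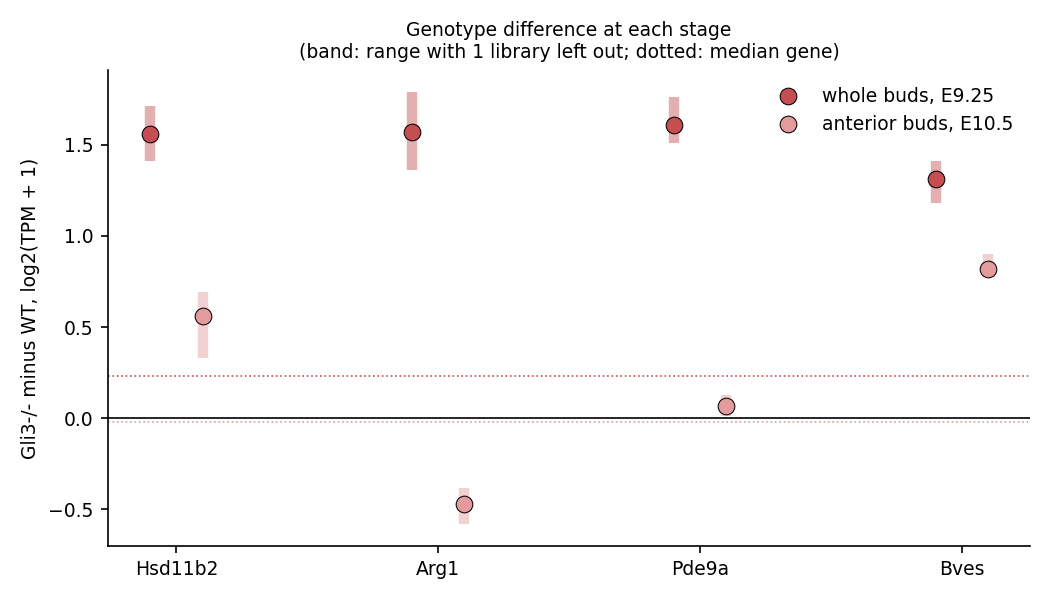
Difference of Gli3-/- minus WT in log2(TPM + 1) for each gene at E9.25 (dark points) and E10.5 (light points), with a band for the range when 1 library is left out and dotted lines at the median of all genes tested. The 4 differences lie between 1.31 and 1.61 at E9.25, the stage that chose the genes, and spread from -0.47 for Arg1 to 0.82 for Bves at E10.5.

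The difference between genotypes at E10.5 minus that at E9.25 was -0.49 for Bves, -1.53 for Pde9a and -2.04 for Arg1, with Hsd11b2 between Bves and Pde9a. These values are descriptions, since the E9.25 difference of the chosen genes was bound to be large. The stages also differ in dissection, whole buds at E9.25 and anterior buds at E10.5, and age and dissection cannot be told apart.

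From E9.25 to E10.5 the 4 genes took different courses in WT. Hsd11b2 was 5.49 times and Pde9a 3.08 times as high at E10.5 by mean TPM, differences of 2.34 and 1.43 on the log2(TPM + 1) scale. Every E10.5 WT library was above every E9.25 WT library for both, as for 41.5% of all genes tested. Arg1 and Bves were lower at E10.5, with 0.503 and 0.394 times the E9.25 mean TPM and differences of -0.89 and -1.11. Every E10.5 WT library was below every E9.25 WT library for both of them, as for 12% of all genes tested. Relative to the median gene, 0.34 higher at E10.5, the 4 differences were 2.01, 1.09, -1.23 and -1.45.

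In Gli3-/- buds Hsd11b2 was again above its E9.25 level in every library, as for 22.3% of all genes, by 1.34. Arg1 was 2.93 lower and Bves 1.60 lower at E10.5, with every library below the E9.25 libraries, as for 13.4% of all genes. Arg1 thus stood at 0.116 times its E9.25 mean TPM in the mutants. Pde9a differed by -0.10 between the stages in the mutants, and its groups overlapped.

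Ordered by mean level, Hsd11b2 climbed from E9.25 WT through E9.25 Gli3-/- and E10.5 WT to E10.5 Gli3-/-, and only the last pair of neighbors overlapped. Arg1 ran in the order E10.5 Gli3-/-, E10.5 WT, E9.25 WT and E9.25 Gli3-/-, with an overlap between the E10.5 groups only. For Pde9a, E9.25 WT stood alone below the rest, and E10.5 WT, E10.5 Gli3-/- and E9.25 Gli3-/- overlapped at means of 3.77, 3.85 and 3.95. Bves was lowest in E10.5 WT, then E10.5 Gli3-/- and E9.25 WT, which overlapped, and highest in E9.25 Gli3-/-. By TPM, Arg1 was the highest of the 4 in each of the 7 E9.25 libraries, followed by Hsd11b2, Bves and Pde9a. In each of the 7 E10.5 libraries Hsd11b2 was the highest, and Pde9a came next by TPM but was the lowest of the 4 by deposited coverage.

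Over the 14 libraries Pearson's r of log2(TPM + 1) was 0.84 between Hsd11b2 and Pde9a and 0.89 between Arg1 and Bves, and -0.46 to 0.12 for the other 4 pairs. These values describe libraries that fall into 4 groups and share their depth. They include the E9.25 libraries whose values chose the 4 genes, so that choice enters them and they are no independent support. The same holds for the genes most like each of the 4, given next.

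The gene most like Hsd11b2 in this sense, among 16368 searched, was the predicted gene Gm4875, followed by Lrig3, Efnb1, Plscr3 and Sh3bp4, each with r = 0.97. Efnb1 encodes ephrin-B1, a membrane ligand of Eph receptors. Arg1 was most like Gata4, Trabd2b, Lhx1, Slc9a3r1 and Gm25349, each with r = 0.98. Gata4 and Lhx1 encode transcription factors of lateral plate and intermediate mesoderm. Their mean levels were 2.06 and 1.35 in WT and 4.93 and 2.85 in Gli3-/- buds at E9.25, and 0.22 or less at E10.5. By Spearman's rho Gata4 and Lhx1 ranked only 104 and 72 in likeness to Arg1, and Slc9a3r1 ranked 3.

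Pde9a was most like Ptgfrn, Tubb2b, Ripk2, Lgr5 and Nrp1, with r of 0.93 to 0.96. Bves was most like Ptges3, Tmem158, Wdr77, Popdc3 and Shisa3, with r of 0.96 to 0.98. Popdc3 is a paralog of Bves on the same chromosome. Ranked by Spearman's rho, 1 of the 5 genes stayed among the 5 most like for Hsd11b2, Arg1 and Bves each, and 0 for Pde9a. Those that stayed were Efnb1, Slc9a3r1 and Ptges3 in this order.

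The closest relatives of the 4 genes were read next. Hsd11b1, the reductase that regenerates active glucocorticoid, was at 0.397 TPM or less in all 14 libraries, and Arg2, the mitochondrial arginase, at 0.843 TPM or less. Neither passed the filter in either genotype comparison, so Hsd11b2 and Arg1 were the expressed members of their pairs at this depth. Pde5a encodes another cGMP phosphodiesterase, and Pde6d a subunit that carries lipid-modified proteins. Pde5a read 2.68 to 5.85 TPM in WT and 5.10 to 6.41 TPM in Gli3-/- buds at E9.25, a difference of 0.31 (limma, adjusted p = 0.415). Pde6d differed by 0.07 (limma, adjusted p = 0.754). Pde2a, a cGMP-stimulated phosphodiesterase, stood at 1.46 to 2.51 in WT and 2.84 to 3.60 in Gli3-/- buds on the log2(TPM + 1) scale at E9.25, a difference of 0.96 ± 0.30 (SE) that did not pass (limma, adjusted p = 0.217). Its groups did not overlap, as for 9.97% of all genes tested.

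The Popeye genes Popdc2 and Popdc3, both of which encode cyclic AMP-binding membrane proteins, were measured alongside Bves. At E9.25 Popdc2 read 7.10, 6.26 and 3.80 TPM in WT and 7.61, 12.1, 14.5 and 7.27 TPM in Gli3-/- buds. Popdc3 read 1.28, 0.937 and 0.791 TPM in WT and 2.27, 3.48, 2.91 and 2.29 TPM in Gli3-/- buds. For both genes every mutant library was above every WT library, as for 9.97% of all genes tested, and neither difference passed: 0.74 ± 0.28 (SE; limma, adjusted p = 0.217) for Popdc2 and 0.89 ± 0.21 (SE; limma, adjusted p = 0.147) for Popdc3. At E10.5 both were under the filter, with at most 0.435 TPM for Popdc2 and 0.550 TPM for Popdc3, whereas Bves stayed above it in each group.

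**Figure D3:**
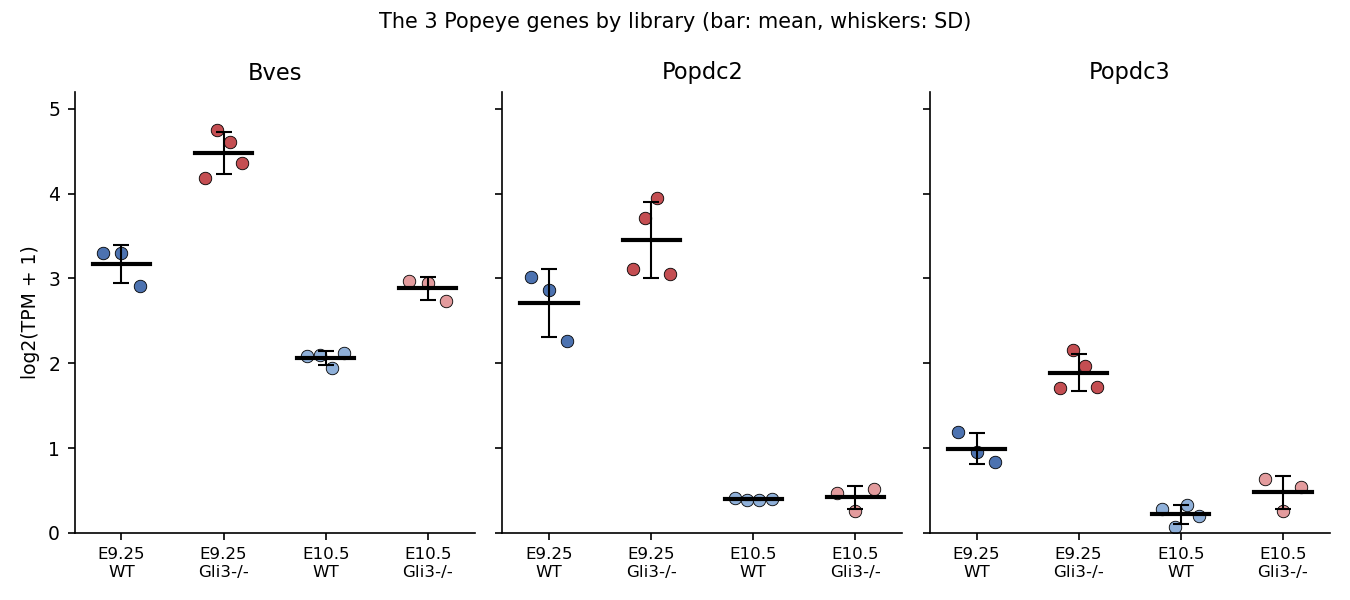
Level of the 3 Popeye genes in each library on the log2(TPM + 1) axis, by group, with 1 point per library, a bar at the mean and whiskers of 1 SD. Popdc2 and Popdc3 are at 0.63 or less in all E10.5 libraries, where Bves lies between 1.94 and 2.97.

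The enzymes, receptors and carriers around the 4 genes were examined as 4 lists, 84 genes in all, chosen with earlier results of these data known. At E9.25 limma called 0 of their 53 tested genes, and 13 had an unadjusted p under 0.05, as did 22.0% (3247) of all genes tested. A single model of all 14 libraries called 6 of the 53: Asl, Pde2a, Npr1, Popdc3 and Kcnk2 higher and Oat lower in the mutants. Leaving out WT replicate 1 gave 1 call, and leaving out WT replicate 2 gave 0. At E10.5 limma called 2 of 48 tested genes, Fkbp5 and Sms, a share near the 4.77% of all genes tested, and the model of all 14 libraries called 0. The count was 0 without WT replicate 1, Gli3-/- replicate 1 or Gli3-/- replicate 3 and 1 without WT replicate 2, 3 or 4.

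In the corticoid list, 13 of 22 genes were tested. At E9.25 the median difference was 0.26, beside 0.23 for all genes tested. Nr3c1, the glucocorticoid receptor, read 1.04, 0.225 and 1.02 TPM in WT and 0.775 to 1.15 TPM in Gli3-/- buds at E9.25. The low value was that of WT replicate 2, and the difference was 0.18 (limma, adjusted p = 0.626). Nr3c2, the mineralocorticoid receptor, was at 0.535 TPM or less in all libraries and was not tested. The steroid synthesis genes Cyp11b1, Cyp11b2 and Cyp21a1 had a mean log2(TPM + 1) of 0.00 in every group. Cyp11a1, Cyp17a1 and Hsd3b1 had group means of 0.42 or less and were not tested. Star, of the same list, had group means of 1.20 to 1.87 and was called at neither stage. At E10.5 Fkbp5, a co-chaperone and target of the glucocorticoid receptor, was upregulated by 0.39 ± 0.09 (SE; limma, adjusted p = 0.0399), a call kept in 1 of the 7 fits with a library left out, that without WT replicate 3. The median was 0.04 beside -0.02 for all genes.

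In the list of arginine, urea cycle and polyamine genes, 20 of 27 were tested. The median difference was 0.26 at E9.25 and 0.08 at E10.5. Cps1 and Otc, which feed the urea cycle in liver, had group means of 0.09 or less on the log2(TPM + 1) scale. Odc1, the ornithine decarboxylase that starts polyamine synthesis from ornithine, was far above Arg1, at 394 to 501 TPM in WT and 442 to 566 TPM in Gli3-/- buds of E9.25. The Odc1 difference was 0.24 (limma, adjusted p = 0.285). At E10.5 Sms, the spermine synthase, was upregulated by 0.34 ± 0.06 (SE; limma, adjusted p = 0.0190), a call lost in 4 of the 7 fits with a library left out (adjusted p up to 0.103 in limma), those without WT replicate 1 or 3 or Gli3-/- replicate 1 or 3.

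Of 27 genes for cGMP synthesis, breakdown and effectors, 13 were tested at E9.25 and 10 at E10.5. The median difference was 0.31 at E9.25 and -0.16 at E10.5. The list of Popeye proteins and their binding partners had 7 of 8 genes tested at E9.25 with a median of 0.74, and 5 at E10.5 with a median of -0.18. Its widest E9.25 difference was that of Kcnk2, the potassium channel TREK-1 that Popeye proteins bind, 1.06 ± 0.27 (SE; limma, adjusted p = 0.184). At E10.5 the difference of Kcnk2 had the opposite sign, -0.68 ± 0.18 (SE; limma, adjusted p = 0.0617), and did not pass either.

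For comparison, the 10 Hedgehog response genes examined had 3 of 7 tested genes upregulated at E9.25, against 0.108% of all genes tested. This list was chosen with earlier results of these data known, so the count is a description. The paper names Foxf1 and Osr1 among the few genes that it found upregulated at E9.25. It proposes that these may be outliers from flank tissue in the dissection, or older mRNAs from the lateral plate mesoderm. Neither was tested here. By in situ hybridization the paper detected neither Foxf1 nor Ptch1 in E9.25 limb buds of either genotype. The 3 upregulated genes were Foxf1 by 3.68 ± 0.43 (SE; limma, adjusted p = 0.0125), Ptch1, the HH receptor, by 2.28 ± 0.32 (SE; limma, adjusted p = 0.0309) and Osr1 by 2.09 ± 0.21 (SE; limma, adjusted p = 0.00636). All 3 were called without WT replicate 2 and none without WT replicate 3 (limma, adjusted p of 0.0734 to 0.134) or without a filter. Foxf1 and Ptch1 also lost their calls without Gli3-/- replicate 1 or 3, and Ptch1 without Gli3-/- replicate 2. Hand2 differed by 0.92 ± 0.24 (SE) at E9.25 and did not pass (limma, adjusted p = 0.189). Every Gli3-/- library was above every WT library for Hand2, as for 9.97% of all genes tested. The model of all 14 libraries called 5 of 9 tested genes higher at E9.25: Ptch1, Hhip, Foxf1, Osr1 and Hand2. It called 686 of 16368 genes higher in all. At E10.5 Hand2 and Ptch1 were upregulated by 1.90 and 1.58, and Cdon and Gas1, HH co-receptors, fell by 1.42 and 0.63 on the log2 scale (limma, adjusted p of 0.000287 to 0.00521 over the 4). The genotype difference of Bves was smaller than that of Ptch1 at both stages, 1.31 against 2.28 and 0.82 against 1.58, and whether these genes differed was not tested.

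**Figure D4:**
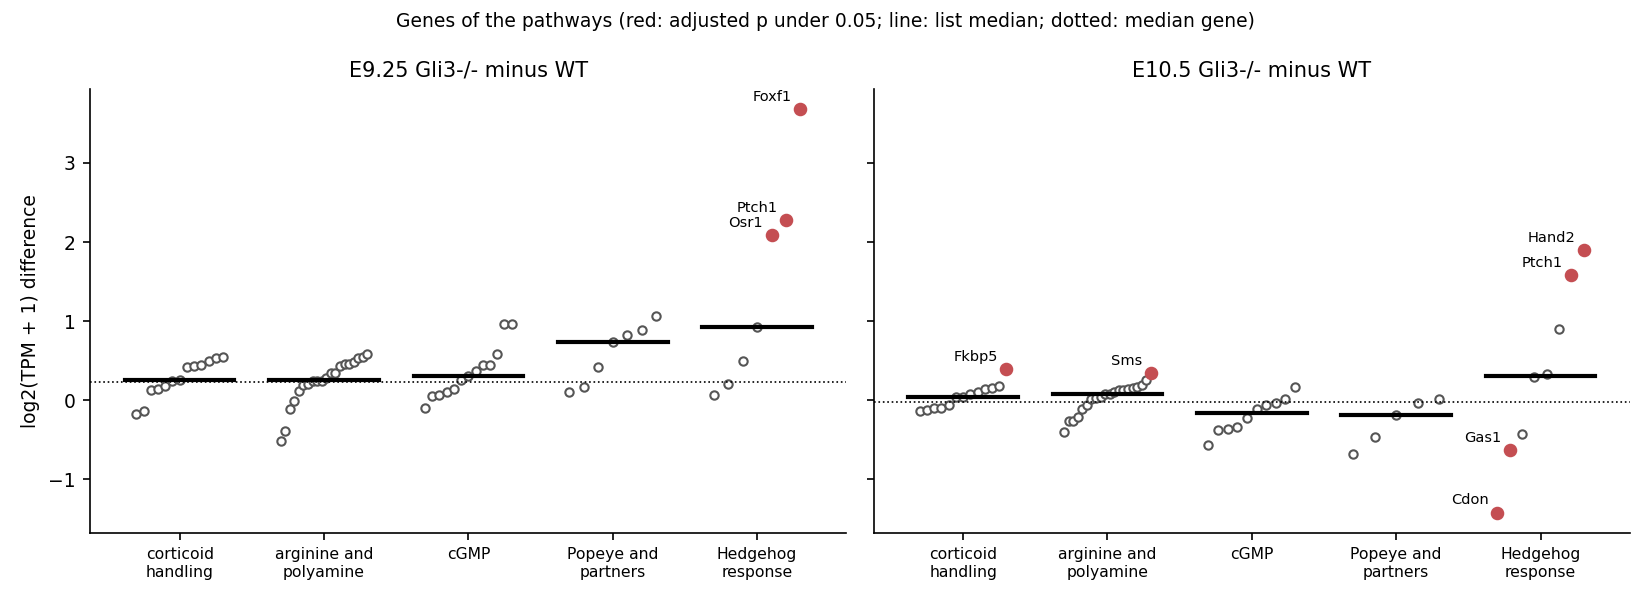
Difference of Gli3-/- minus WT in log2(TPM + 1) for each tested gene of the 5 lists at E9.25 (left) and E10.5 (right), with red points where limma's adjusted p was under 0.05, a line at each list's median and a dotted line at the median of all genes. At E9.25 the red points are Foxf1, Ptch1 and Osr1, and at E10.5 the lists other than the Hedgehog list hold Fkbp5 and Sms.

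The genes next to the 4 were also read, as all genes whose span reached within 100 kb of a start. They numbered 18, of which 8 were tested at each stage. At E9.25 limma called 0 of the 8, and 2 had an unadjusted p under 0.05, against 22.0% of all genes tested. Near Hsd11b2, Atp6v0d1, Tppp3, Fam65a and Zdhhc1 differed by 0.18, 0.00, 0.74 and 0.38. Near Arg1, Med23, a subunit of Mediator, and Enpp3 differed by 0.27 and -0.18. Near Bves, Lin28b differed by 0.19 and Popdc3 by 0.89. The single gene listed near Pde9a was not tested. At E10.5 1 of 8 was called, against 4.77% of all genes tested. This was Enpp3, an ectonucleotide pyrophosphatase whose start lay 91.3 kb beyond that of Arg1 in the direction of its transcription, higher by 0.48 ± 0.11 (SE; limma, adjusted p = 0.0354). Enpp3 was called in 1 of the 7 fits with a library left out, that without WT replicate 4. The model of all 14 libraries called 0 at E10.5, and Popdc3 alone at E9.25.

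Markers of 10 cell types were summed per library. At E9.25 the sums of 5 lists were higher in every Gli3-/- than in every WT library: those of flank and lateral plate mesoderm, cardiomyocytes, nephric duct, surface ectoderm and endothelium. Of single genes tested, 9.97% were higher in this way. A sum follows its most abundant genes. The tested markers with a difference above that of the median gene were 8 of 8, 3 of 3, 3 of 4, 4 of 10 and 5 of 6 in the same order. The 9 flank and lateral plate markers summed to 66.8, 30.0 and 27.2 TPM in WT and 154, 220, 232 and 88.5 TPM in Gli3-/- buds. Of 8 tested, Foxf1, Gata4 and Tcf21 were upregulated (limma), against 0.108% of all genes tested. The list was chosen with earlier results of these data known, and Foxf1 is also counted in the Hedgehog list. Without WT replicate 2 or Gli3-/- replicate 2 Foxf1 and Gata4 were called, and none of the 3 was called without WT replicate 3, Gli3-/- replicate 1 or Gli3-/- replicate 3. The model of all 14 libraries called all 8 tested flank markers higher at E9.25, where it called 686 of 16368 genes higher. All 9 flank and lateral plate markers were under 1 TPM in each E10.5 Gli3-/- library, and the sums were 1.73 to 4.10 TPM in E10.5 WT.

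The 8 cardiomyocyte markers summed to 1.37 to 3.71 TPM in WT and 4.92 to 11.1 TPM in Gli3-/- buds at E9.25, with Myh6, Myh7, Nkx2-5, Actn2 and Ryr2 under 1 TPM in each of these libraries. The 6 nephric duct markers summed to 7.74 to 12.9 TPM and 15.3 to 23.4 TPM, with Pax2 and Pax8 under 1 TPM. The 10 surface ectoderm markers summed to 173 to 278 TPM and 284 to 451 TPM, and the 6 endothelial markers to 59.3 to 94.9 TPM and 108 to 157 TPM. The part of these cell types in the E9.25 levels of the 4 genes was not tested. The 8 limb bud mesenchyme markers each reached 1 TPM in every group, and their E9.25 sums overlapped, with 811 to 966 TPM in WT and 673 to 1030 TPM in the mutants. Of these 8 markers, Lhx2 fell by 2.00 on the log2 scale at E9.25 (limma, adjusted p = 0.0142), where 0.136% of all genes tested passed in either direction. The call of Lhx2 was lost without WT replicate 3 or Gli3-/- replicate 1 or 3. At E10.5 limma called 5 of the 8 lower and 1 higher in the mutants, against 4.77% of all genes tested in either direction. The sums of macrophage, muscle progenitor, neural tube and blood markers overlapped at E9.25 as well, and those of the 5 blood markers were 6910 to 33300 TPM over all libraries.

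Arg1 is also a macrophage gene. At E9.25, where Arg1 read 13.5 to 68.6 TPM, the 9 macrophage markers together summed to at most 1.96 TPM, all 9 were under 1 TPM in each WT library and 8 of 9 in each Gli3-/- library. At E10.5 they summed to 12.6 to 22.9 TPM. At that stage the sums of limb bud mesenchyme, nephric duct and muscle progenitor markers were lower in every Gli3-/- than in every WT library, and those of neural tube markers higher, at 0.592 TPM or less. Of the 6 nephric duct markers, Pax2, Pax8, Ret and Lhx1 were under 1 TPM in every E10.5 library. That sum thus rested on Gata3 and Emx2, the 2 tested, both called lower in the mutants (limma), against 4.77% of all genes in either direction. The flank, cardiomyocyte, ectoderm and endothelial sums overlapped between genotypes at E10.5. The part of any of these cell types in the E10.5 levels of the 4 genes was not tested.

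**Figure D5:**
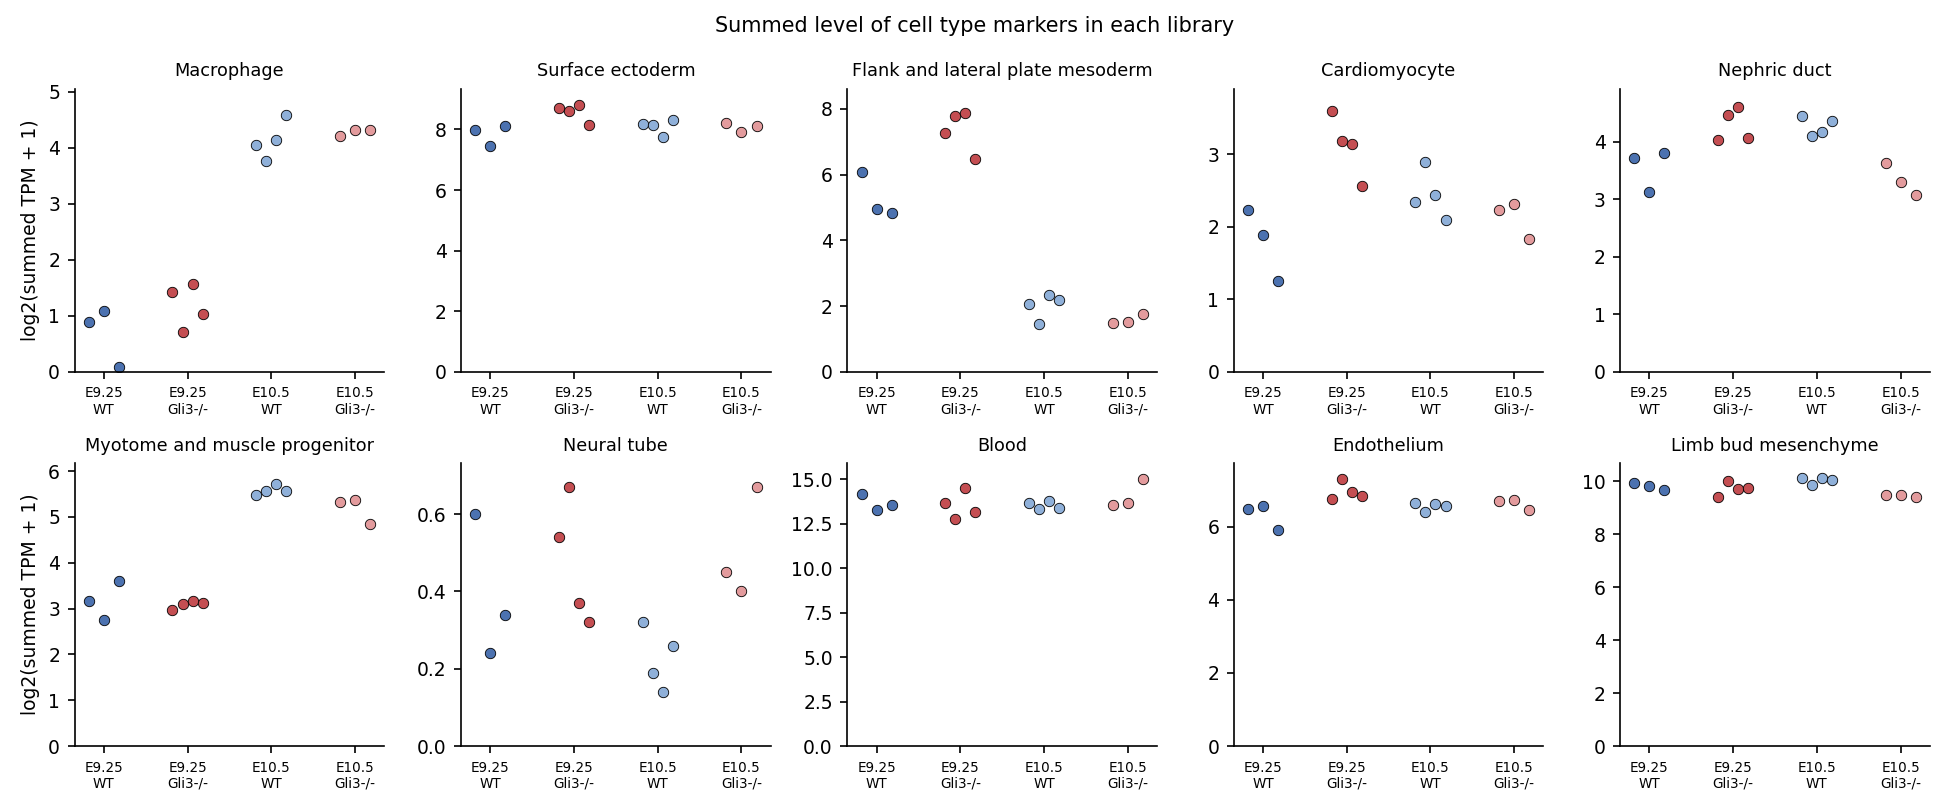
Summed level of the markers of 10 cell types in each library, on the log2(summed TPM + 1) axis, by group, with 1 point per library and a separate scale for each list. At E9.25 the flank and lateral plate mesoderm sums are 4.82 to 6.08 in WT and 6.48 to 7.87 in Gli3-/- libraries, and the macrophage sums are at most 1.57.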

How the data were processed

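RNA-seq of 14 libraries in 4 groups was used, and other data types of the series were not used here. The authors sequenced single reads of 100 bases, aligned them with HISAT2 and deposited a table per library with TPM, FPKM and coverage (signal per base) of each gene. The tool, annotation and strand setting behind the tables are not given in the sources used here, and the tables hold no counts, so limma replaced the DESeq2 test of the study's methods. The deposited TPM values, scaled by the authors to a total of 1000000 per library, were used for every level. The deposited FPKM values served an alternative and, with the deposited coverage, the estimate of reads. TPM of repeated IDs was summed and log2(TPM + 1) computed. The test was limma 3.58.1 in R 4.3.3, on genes that reached a TPM of 1 in 3 or more compared libraries (eBayes with a trend, two-sided, Benjamini-Hochberg over all genes tested, threshold 0.05), within each stage. A fold on this scale understates that of low genes. The procedure was tested on simulated data. The alternatives changed the pseudocount to 0.1, the filter to none or to a TPM of 5, the scaling to size factors or quantile normalization, and the fit to no trend, one model of all 14 libraries, sample quality weights, replicate blocks and each library left out. FPKM at E10.5 and 2 counts without E9.25 WT replicate 2 were added after seeing the data.

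The 4 genes, the lists and the rules were chosen with earlier results of these data known. Named are the 4 genes, Gli3, close relatives, called genes of the lists (at most 6 per list and stage), tested neighbors within 100 kb and the 5 genes most like each, among genes that reached a TPM of 1 in 3 or more of the 14 libraries. Other names were chosen after their values were seen. One further Hedgehog gene was left out of the list and is not analysed here. RefSeq promoter sequences of the 4 genes were not used here. Python 3.11.15 with pandas 2.3.3, NumPy 2.4.6 and matplotlib 3.10.9 made the tables and figures.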

Additional observations from a re-analysis of the deposited data

Results flagged for a closer look

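One value stood apart among 54 groups of 4 libraries examined over 27 named genes, where chance flags about 1 in 20 groups. Bves in E10.5 WT replicate 3 was 1.94 on the log2(TPM + 1) scale, below the other 3 libraries of the group at 2.09 to 2.12.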

How the results depend on the processing

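The directions of the E9.25 and stage differences of the 4 genes held in all 128 alternatives run, and 12 moved a value by 1 SD or more. The E9.25 values chose these genes, and the stage differences share those libraries, so unchanged directions are no independent support. They include the stage difference of Pde9a in the mutants, -0.1 with overlapping groups. Quantile normalization gave 1.30 for Hsd11b2, 1.33 for Pde9a and 1.03 for Bves at E9.25. For stage in WT, Hsd11b2, Arg1, Pde9a and Bves gave 2.00, -1.23, 1.12 and -1.41 with size factors and 2.01, -1.29, 0.94 and -1.59 with quantile normalization, and Bves -1.30 with a pseudocount of 0.1. With 1 library left out the E9.25 differences were 1.41 to 1.71 (Hsd11b2), 1.36 to 1.79 (Arg1), 1.51 to 1.76 (Pde9a) and 1.18 to 1.41 (Bves). The stage differences were 2.20 to 2.50, -1.11 to -0.67, 1.34 to 1.59 and -1.24 to -1.04 in WT and 1.11 to 1.48, -3.05 to -2.84, -0.22 to -0.02 and -1.69 to -1.51 in Gli3-/- buds. The E10.5 differences were 0.33 to 0.69, -0.58 to -0.38, 0.01 to 0.13 and 0.78 to 0.90.

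Same-numbered libraries did not deviate together at E9.25 (r = -0.20, -0.16 and -0.19) or, by titles, at E10.5 (0.15, -0.13 and -0.18). These values cannot settle whether the numbers pair the samples. With the replicate block by titles, Bves at E10.5 was 0.84 (limma, adjusted p = 0.0651), and all genes called numbered 66 at E9.25 and 164 at E10.5. By file numbers at E10.5, r was 0.05, 0.32 and 0.20 for same-numbered libraries and -0.18 to 0.15 for the other pairs. With the replicate block by file numbers, Hsd11b2 was 0.52 (limma, adjusted p = 0.0262). The cause of these changes was not tested. Over the other settings without a library left out, adjusted p in limma was 0.103 to 0.375 for Arg1 and 0.580 to 0.967 for Pde9a.

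The E10.5 count was 391 without a filter, 386 in one model of all 14 libraries and 1356 with sample quality weights, and 301 to 680 with 1 library left out. The E9.25 count was 0 without a filter, 796 in the model of all 14 libraries and 2 to 196 with 1 library left out. That model called 6 partner genes and 1 neighbor at E9.25 and 0 of either at E10.5. With 1 library left out, partner calls were 0 to 1 at E9.25 and 0 to 3 at E10.5, and neighbor calls 0 at E9.25 and 0 to 1 at E10.5. TPM near or below 1 rests on few reads per kilobase, which limits Popdc3 and the receptors Nr3c1 and Nr3c2.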
